A study of Mus musculus with 6 samples.

Results

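Leukotrienes and prostaglandins are lipid mediators made from arachidonic acid, and 10 genes of their synthesis and sensing were measured here in whole mouse lung. They are Alox5, Alox5ap, Alox15, Ltc4s and Cysltr1 of the lipoxygenase and leukotriene branch, and Ptgs1, Ptgs2, Ptges, Ptgds and Hpgds of the prostaglandin branch. The genes were taken by name, as the probes whose RefSeq accession maps to one of these symbols. The list of names was drawn up with earlier results of these data known, so it is not blind to them. They are 10 of the 19749 genes with a named probe and a value on every array, and 12 probes stand for them, with 2 each for Cysltr1 and Ptges. All 12 probes were well above background on 6 of 6 arrays, so no value of these genes is a bound.

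The samples were whole lungs of C57BL/6 mice that had received histamine-releasing factor (HRF) or phosphate-buffered saline (PBS) through the nose. HRF is the secreted form of the protein encoded by Tpt1 and can act on cells that carry IgE. The 6 groups are FcRg KO mice (FcRg-/-) given HRF, FcRg KO mice given PBS, FceRIa KO mice (FceRIa-/-) given HRF, FceRIa KO mice given PBS, wild-type (WT) mice given HRF and WT mice given PBS. FcRg, encoded by Fcer1g, is the signalling chain shared by several Fc receptors, and FceRIa, encoded by Fcer1a, is the chain of the high-affinity IgE receptor that binds IgE. Each group is 1 array, with no replicate. Age, dose, time after the challenge and the number of mice behind an array are not given in the labels used here. In fits with a genotype term, the error behind a p-value is therefore how far the HRF to PBS difference varies between labels. Differences in level between labels are taken out of that error. Where the response of 1 label is tested, the error comes from the other labels alone. How much mice with the same label and challenge vary cannot be estimated from these arrays.

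In this pathway, phospholipases free arachidonic acid from membranes. The 5-lipoxygenase Alox5, handed its substrate by the membrane protein FLAP (Alox5ap), starts the leukotrienes, and Ltc4s couples leukotriene A4 to glutathione to give leukotriene C4, whose product leukotriene D4 acts on Cysltr1. Cyclooxygenases (Ptgs1 and Ptgs2) make prostaglandin H2, which terminal synthases such as Ptges and Hpgds turn into individual prostaglandins. Mast cells, eosinophils, macrophages and airway epithelium are known sources of these mediators in allergic airways, where cysteinyl leukotrienes and prostaglandin D2 narrow airways and attract leukocytes.

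A level here is the scanner's processed signal divided by its 75th percentile on the same array, in log2 units, so 0 marks that percentile. Probes differ in their response, so levels are compared between arrays and not between genes. Each array held 59305 spots other than controls, of which 67.5% to 79.6% were well above background, none was saturated, and all arrays shared 1 slide and 1 scan. The number of arrays limits the precision of every value. Neither label was matched by a lower level of the gene it names. Fcer1g stood at 4.32 (HRF) and 4.14 (PBS) on the arrays labelled FcRg KO, and at 4.61 and 3.93 in WT, while Fcer1a stood at -1.16 and -0.90 on the arrays labelled FceRIa KO, and at -4.19 and -4.48 in WT. The position of these probes relative to the deletions is not known here, and a probe beyond the deletion gives no check of the label, so groups are named by their labels. Lung markers were high on every array: the mean level of 7 alveolar type 2 cell genes, among them Sftpc, lay between 6.37 and 6.70. The B cell genes set the arrays labelled FcRg KO apart, with a mean level over 5 genes of -4.37 (HRF) and -4.26 (PBS) there, 0.31 and -0.02 on the arrays labelled FceRIa KO, and 0.22 and 0.07 in WT. Ms4a1 and Pax5 were not well above background on either array labelled FcRg KO.

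In the lipoxygenase branch, Alox15 had the largest HRF to PBS ratio and at this scaling the other genes stayed within 1.5-fold in each pair of arrays. Alox15, the mouse 12/15-lipoxygenase found in macrophages and eosinophils, stood at -1.54 on the HRF and -1.93 on the PBS array labelled FcRg KO. It stood at -2.49 (HRF) and -2.72 (PBS) on the arrays labelled FceRIa KO, and at -1.64 (HRF) and -2.70 (PBS) in WT. The HRF array was the higher one of each pair, by 2.10-fold in WT, 1.31-fold under the FcRg KO label and 1.17-fold under the FceRIa KO label, while the groups overlapped, since the HRF array labelled FceRIa KO lay below the PBS array labelled FcRg KO. Of all 17605 genes, 16.5% were higher on the HRF array within each of the 3 labels. The HRF effect on Alox15 over the 3 labels was 0.56 on the log2 scale (SE 0.20, limma adjusted p = 0.557, higher in 3 of 3 pairs), which did not pass the threshold of 0.05, and it was 0.31 without the WT pair. Eosinophil genes had a mean level over 8 genes of 0.35 (HRF) and -0.38 (PBS) under the FcRg KO label, 0.10 and 0.22 under the FceRIa KO label, and 0.23 and -0.21 in WT. The medians of their log2 HRF to PBS ratios were 0.53, 0.12 and 0.28 in the same order of labels. Siglecf, Ear1 and Ear2, also listed for alveolar macrophages, had log2 ratios of -0.62, -0.79 and -0.75 under the FceRIa KO label. The other genes of the list lay between 0.11 (Epx) and 0.53 (Ccr3) there. Alveolar macrophage genes had a mean over 9 genes of 3.86 (HRF) and 3.83 (PBS) under the FcRg KO label. That mean was 3.80 and 3.72 under the FceRIa KO label, and 3.85 and 3.56 in WT. It includes Fabp4, also listed for adipocytes, whose log2 ratios were -1.27 under the FcRg KO label, 1.21 under the FceRIa KO label and 0.10 in WT. The medians of the log2 ratios of the 9 genes were 0.13, 0.01 and 0.19 in the same order of labels. Club and goblet cell genes of the airway had a mean level over 7 genes of 4.19 (HRF) and 3.42 (PBS) under the FcRg KO label. That mean was 3.21 on both arrays labelled FceRIa KO, and 4.61 and 3.56 in WT. In WT 4 of the 7 were at least 2-fold higher (2.32% of all genes compared). The counts were 2 under the FcRg KO label (0.765%) and 0 under the FceRIa KO label (1.48%). Scgb1a1, Cyp2f2 and Muc5b had log2 ratios of 0.02, -0.13 and 0.00 in WT. Monocyte and interstitial macrophage genes had a mean over 7 genes of 1.86 (HRF) and 1.32 (PBS) in WT, and medians of the log2 ratios of 0.04 under the FcRg KO label, 0.20 under the FceRIa KO label and 0.28 in WT. The part of these lists in the Alox15 values was not tested, and in whole lung fewer cells of a type and less RNA per cell cannot be told apart.

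Alox5, the first enzyme of leukotriene synthesis, was 1.46-fold lower on the HRF array labelled FceRIa KO and close to even in the other pairs. Its levels were 1.54 (HRF) and 1.59 (PBS) under the FcRg KO label, 0.95 and 1.49 under the FceRIa KO label, and 1.22 and 1.19 in WT. The lowest of the 6 values is thus the HRF array labelled FceRIa KO, and the other 5 lay between 1.19 and 1.59. Alox5ap, which presents arachidonic acid to Alox5, stood at 3.83 (HRF) and 3.66 (PBS) under the FcRg KO label, 3.38 and 3.39 under the FceRIa KO label, and 3.62 and 3.16 in WT. Its HRF array in WT was 1.38-fold above the PBS array, which was the lowest of the 6. The limma estimates of the HRF effect were -0.19 (SE 0.15, adjusted p = 0.657) for Alox5 and 0.21 (SE 0.12, adjusted p = 0.584) for Alox5ap, neither past the threshold. The Alox5 estimate rests on a single pair, being -0.010 without the pair labelled FceRIa KO. That of Alox5ap was 0.080 without the WT pair, with log2 ratios of 0.17 under the FcRg KO label and -0.01 under the FceRIa KO label.

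Ltc4s, the enzyme that commits leukotriene A4 to the cysteinyl leukotrienes, was lower on the HRF array of each pair, by small amounts. Levels were 2.18 (HRF) and 2.20 (PBS) under the FcRg KO label, 1.65 and 1.99 under the FceRIa KO label, and 1.74 and 1.89 in WT. These log2 ratios of -0.02, -0.34 and -0.16 compare with 20.6% of all genes that were lower on the HRF array within each label, and scaling on the array median turned the WT ratio to 0.07. Cysltr1, the receptor that leukotriene D4 binds, was measured by 2 probes that moved alike. The brighter one (A_55_P2023818) stood at -0.02 (HRF) and -0.39 (PBS) under the FcRg KO label, -0.57 and -0.40 under the FceRIa KO label, and -0.15 and -0.57 in WT. HRF was thus the higher array under the FcRg KO label (1.29-fold) and in WT (1.35-fold) and the lower one under the FceRIa KO label (1.12-fold). The second probe (A_55_P2104363) gave log2 ratios of 0.29, -0.29 and 0.48 for the FcRg KO label, the FceRIa KO label and WT, in the same directions. Neither Ltc4s (-0.17, SE 0.09, adjusted p = 0.572) nor Cysltr1 (0.21, SE 0.15, adjusted p = 0.637) passed in limma.

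**Figure D1:**
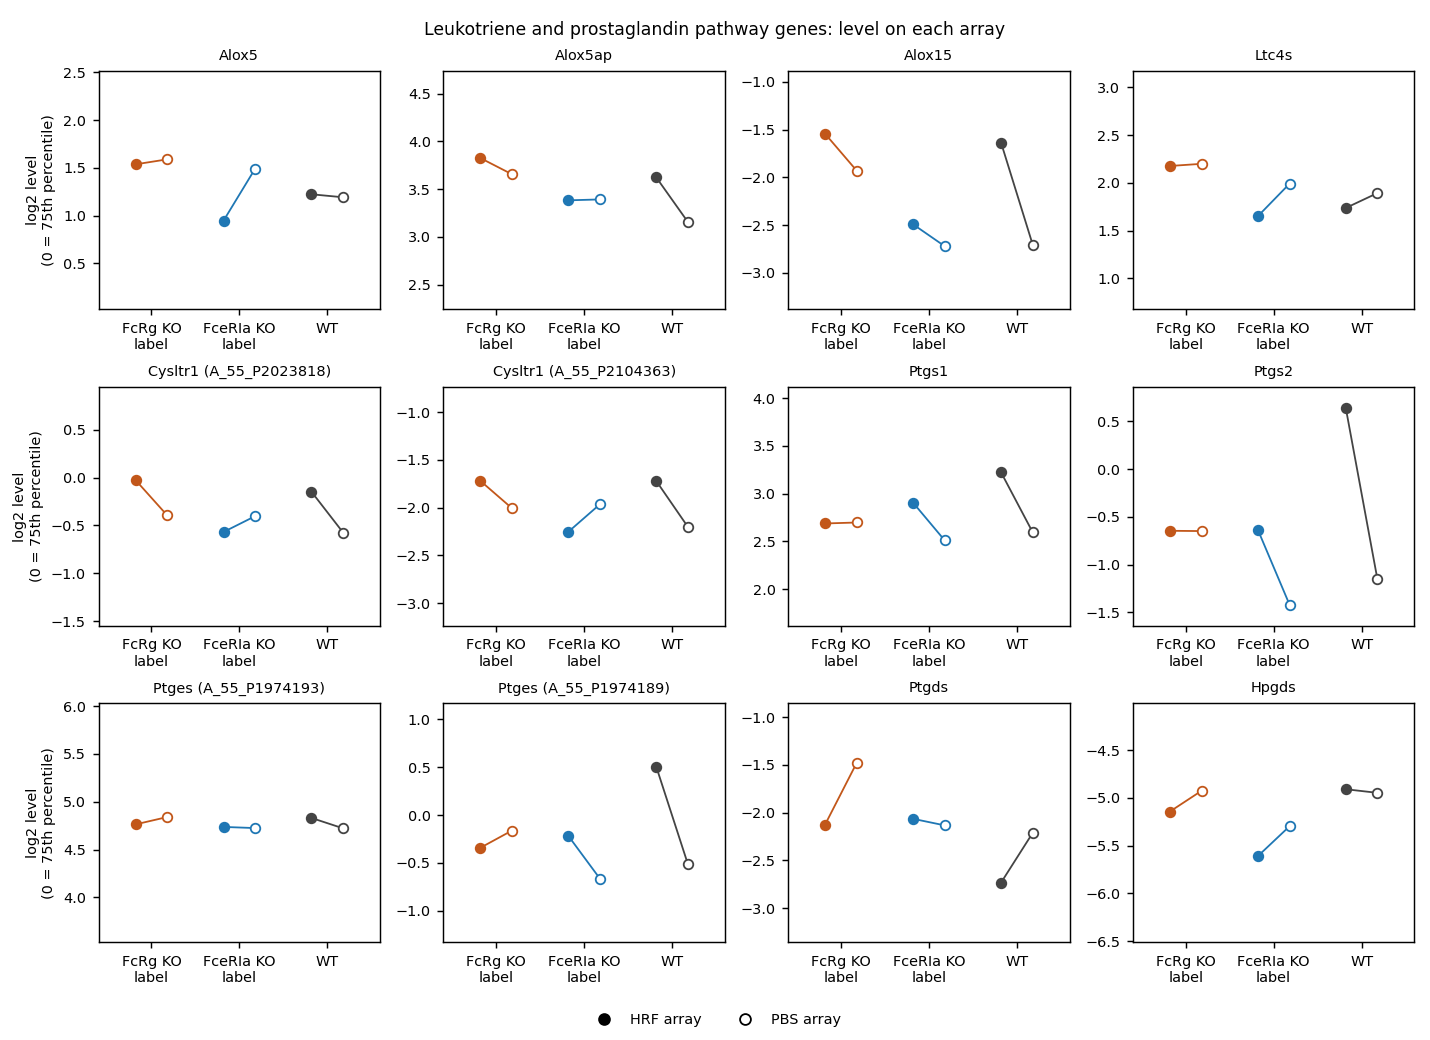
Level of each gene on each array, as log2 of the processed signal relative to the array's 75th percentile (vertical axis, the same span in every panel), by genotype label (horizontal axis). Filled circles are HRF arrays, open circles PBS arrays, a line joins the pair of a label, and Cysltr1 and Ptges have a panel per probe. Ptgs2, Alox15 and the dimmer Ptges probe have the steepest WT lines, and the brighter Ptges probe is flat.

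The cyclooxygenases held the largest ratio of the 10 genes. Ptgs2, the inducible cyclooxygenase COX-2, stood at -0.65 on both arrays labelled FcRg KO. It stood at -0.64 (HRF) and -1.42 (PBS) under the FceRIa KO label, and at 0.64 (HRF) and -1.16 (PBS) in WT. The WT HRF array was the highest of the 6 by over 1 log2 unit, and the HRF array exceeded the PBS array 3.47-fold in WT and 1.72-fold under the FceRIa KO label, with a log2 ratio of 0.00 under the FcRg KO label. All HRF arrays lay above all PBS arrays, yet the lowest HRF and the highest PBS array, both labelled FcRg KO, differed by 0.003. Scaling on the array median turned that pair's log2 ratio to -0.038, which ends the separation, and in the deposited value table it was 0. Of all 17605 genes, 5.95% had their HRF arrays above their PBS arrays as Ptgs2 did with the 75th percentile. Over the 3 labels Ptgs2 averaged -0.21 ± 0.74 on the HRF arrays and -1.07 ± 0.39 on the PBS arrays (SD, n = 3 arrays of different labels each), and the limma HRF effect was 0.86 (SE 0.39, 95% interval -0.27 to 1.99, adjusted p = 0.558), which did not pass. Without the WT pair it was 0.39.

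Ptgs1, the cyclooxygenase COX-1 that many cells express at a steady level and that platelets use to make thromboxane, differed less. Its levels were 2.69 (HRF) and 2.70 (PBS) under the FcRg KO label, 2.90 and 2.51 under the FceRIa KO label, and 3.22 and 2.59 in WT. The WT HRF array was again the highest, 1.55-fold above its PBS array, and the FceRIa KO pair had a 1.32-fold ratio, with groups that overlapped. The limma HRF effect was 0.34 (SE 0.15, adjusted p = 0.558). Platelet and megakaryocyte genes were lower on the WT HRF array, where Ptgs1 was higher: their mean level over 8 genes was 0.37 (HRF) and 0.10 (PBS) under the FcRg KO label, 0.72 and 0.19 under the FceRIa KO label, and -0.30 and 0.11 in WT. Of these 8 genes, 0 were 2-fold higher or lower in any pair, and their part in the Ptgs1 values was not tested.

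The promoters of both cyclooxygenases and of Ptges are shown because Ptgs2 and 1 Ptges probe had the largest prostaglandin-branch ratios in WT, with Ptgs1 as the gene of the smaller ratio beside them. They come from RefSeq on build GRCm38.p6, each running from 250 bases before the annotated start to 30 bases after it, 5′ to 3′ on the strand of the gene. Ptgs2 is at chr1:150099781-150100060 (+), Ptgs1 at chr2:36230176-36230455 (+) and Ptges at chr2:30903268-30903547 (-). Capitals mark matches to 6 motifs, searched on both strands in the 300 bases that reach 50 bases past the start. They are the TATA box, spelled TATAAA, the E-box CACGTG, the core TGACGT of the cAMP response element, the C/EBP palindrome TTGCGCAA, the AP-1 motif TGANTCA and the GC box GGGCGG.
Ptgs2: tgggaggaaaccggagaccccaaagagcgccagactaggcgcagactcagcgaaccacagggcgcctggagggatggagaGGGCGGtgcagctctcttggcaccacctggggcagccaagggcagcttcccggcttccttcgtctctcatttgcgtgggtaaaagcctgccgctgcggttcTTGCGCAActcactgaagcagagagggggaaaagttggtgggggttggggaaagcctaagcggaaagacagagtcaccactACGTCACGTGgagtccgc
Ptgs1: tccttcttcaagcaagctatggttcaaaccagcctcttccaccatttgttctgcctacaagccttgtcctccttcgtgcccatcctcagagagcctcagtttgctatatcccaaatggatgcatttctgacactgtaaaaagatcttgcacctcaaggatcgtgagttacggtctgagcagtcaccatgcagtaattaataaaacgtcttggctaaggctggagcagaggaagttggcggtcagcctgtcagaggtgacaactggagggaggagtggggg
Ptges: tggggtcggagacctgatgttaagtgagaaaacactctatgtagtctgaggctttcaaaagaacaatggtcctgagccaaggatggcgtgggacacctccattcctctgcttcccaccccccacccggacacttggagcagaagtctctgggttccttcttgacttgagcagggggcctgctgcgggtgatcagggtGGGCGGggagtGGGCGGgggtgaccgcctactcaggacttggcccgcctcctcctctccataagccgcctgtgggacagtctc
In Ptgs2 the capitals are a GC box that begins 170 bases before the start, a C/EBP palindrome that begins 69 bases before it, and a run after the start in which a reversed cAMP response element core and an E-box overlap. The palindrome was in 0.183% of 32851 promoters of this length, the E-box in 7.15%, the cAMP response element core in 7.51% and the GC box in 35.7%. Ptges held 2 GC boxes, which begin 53 and 42 bases before the start, and Ptgs1 held none of the motifs. The TATA box was in 13.6% of promoters and the AP-1 motif in 7.81%. Of the other genes in the table, Alox5 held a GC box and Ptgds an AP-1 match, while Ltc4s and Hpgds held none. Promoters of 7 of the 10 genes were in the table. The motifs were chosen after the promoters had been seen, and a match is a description of letters, not of a bound site.

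Among the prostaglandin synthases, Ptges gave different values by probe. Ptges is the microsomal prostaglandin E synthase, an enzyme that works with Ptgs2 to make prostaglandin E2. Its brighter probe (A_55_P1974193), which stands for the gene in the tests, spanned 0.12 over the 6 arrays: 4.76 (HRF) and 4.84 (PBS) under the FcRg KO label, 4.74 and 4.72 under the FceRIa KO label, and 4.83 and 4.72 in WT. The dimmer probe (A_55_P1974189) stood at -0.34 (HRF) and -0.16 (PBS) under the FcRg KO label, -0.22 and -0.67 under the FceRIa KO label, and 0.51 and -0.52 in WT, a span of 1.17. On the dimmer probe the WT HRF array was the highest and 2.03-fold above its PBS array, against 1.08-fold on the brighter probe. The limma HRF effect was 0.01 (SE 0.08, adjusted p = 0.950) for the brighter probe and, in a fit of each probe on its own added after this difference was seen, 0.43 (SE 0.26, adjusted p = 0.605) for the dimmer one. Which transcripts the 2 probes read is not known here, so no Ptges ratio is given for the gene as a whole.

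Ptgds and Hpgds are the lipocalin-type and the haematopoietic prostaglandin D synthases, the second being the form of mast cells and type 2 lymphocytes. Ptgds stood at -2.12 (HRF) and -1.48 (PBS) under the FcRg KO label, -2.06 and -2.13 under the FceRIa KO label, and -2.73 and -2.21 in WT. The PBS array labelled FcRg KO was the highest and the WT HRF array the lowest, and HRF arrays were 1.57-fold lower under the FcRg KO label and 1.44-fold lower in WT. Fat and heart muscle genes also differed between these arrays. The mean level of 7 adipocyte genes was 0.02 (HRF) and 2.11 (PBS) under the FcRg KO label, 1.67 and 0.24 under the FceRIa KO label, and 0.86 and 0.75 in WT. The mean of 6 cardiac muscle genes was 4.20 and 5.28, 4.41 and 4.52, and 4.40 and 4.75 in the same order of labels and arrays. Both lists were highest on the PBS array labelled FcRg KO, as Ptgds was, and their part in the Ptgds values was not tested. Hpgds, with levels of -5.14 (HRF) and -4.93 (PBS) under the FcRg KO label, -5.61 and -5.30 under the FceRIa KO label, and -4.91 and -4.95 in WT, was lowest on both arrays labelled FceRIa KO at this scaling. With normexp background correction the PBS array labelled FceRIa KO was instead 0.07 above the WT PBS array. The limma HRF effects were -0.37 for Ptgds (SE 0.18, adjusted p = 0.564) and -0.16 for Hpgds (SE 0.10, adjusted p = 0.597), neither past the threshold, and that of Hpgds was -0.0020 with normexp. Mast cell genes, which include Cpa3 and Mcpt4, had a mean level over 7 genes of -1.55 (HRF) and -1.25 (PBS) under the FcRg KO label. That mean was -1.23 and -1.42 under the FceRIa KO label, and -1.44 and -1.02 in WT. The HRF array was thus the higher one under the FceRIa KO label alone, and the part of mast cells in the Hpgds values was not tested.

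**Figure D2:**
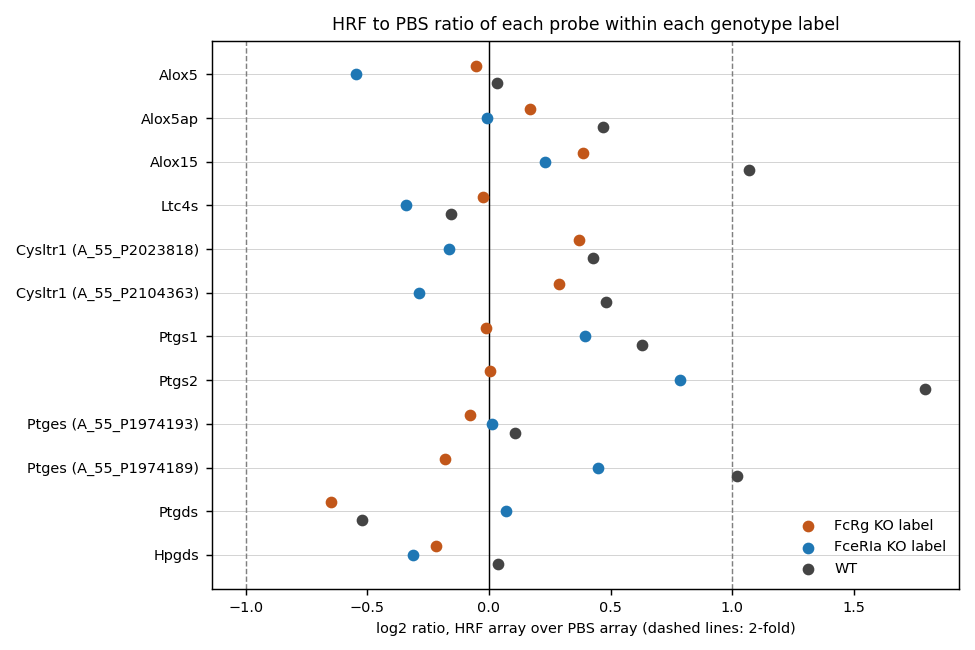
Log2 ratio, HRF over PBS array (horizontal axis), for each of the 12 probes (rows), with 1 point per genotype label. Dashed lines mark 2-fold. Ptgs2 (1.79), Alox15 (1.07) and the dimmer Ptges probe (1.02) pass the upper line in WT, and no point under either knockout label passes a line.

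Counted over the 10 genes, the WT pair held 2 that were at least 2-fold higher with HRF, Ptgs2 and Alox15, beside 2.32% of 17435 genes compared, and 0 that were 2-fold lower (1.52% of genes). Ptges counts in this paragraph by its brighter probe alone, and its dimmer probe, 2.03-fold higher in WT, would also pass there. Under the FceRIa KO label 0 of the 10 were 2-fold higher (1.48% of 16314 genes) and 0 lower (0.447%). Under the FcRg KO label the counts were 0 higher (0.765% of 16592 genes) and 0 lower (1.18%). At 1.5-fold, WT held 3 higher (5.27% of genes), with Ptgs1 as the third, and 0 lower (7.7%). Ptgs1 fell short of 1.5-fold with normexp (log2 ratio 0.53), and with median scaling Alox5ap (0.69) and Cysltr1 (0.65) passed as well. The FceRIa KO label held 1 higher, Ptgs2 (3.69%), and 0 lower (2.02%), and the FcRg KO label 0 higher (3.06%) and 1 lower, Ptgds (3.47%). The median log2 ratio of the 10 genes was -0.02 under the FcRg KO label, 0.00 under the FceRIa KO label and 0.27 in WT, beside medians over all genes of 0.00, -0.01 and -0.05. Scaling on the array median moved the median of all genes by 0.22 in the WT ratio, with the same shift for the 10 genes. With 1 array per group these ratios carry no test.

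The test over the 3 labels called 0 genes of 17605 (0.0%) for the HRF effect, with 1552 (8.82%) at p under 0.05 before adjustment, and the lowest adjusted p was 0.557. Of the 10 genes, 0 had an unadjusted p under 0.05, while 6 estimates were above 0 and 4 below it, with a median of 0.11 beside -0.02 over all genes. Neutrophil genes differed between the WT arrays as Ptgs2 and Alox5ap did. Their mean level over 9 genes was 1.65 (HRF) and 1.67 (PBS) under the FcRg KO label, 2.03 and 1.91 under the FceRIa KO label, and 2.23 and 0.95 in WT, where 5 of the 9 were at least 2-fold higher (2.32% of all genes compared). Csf3r went the other way in WT, at 5.72 (HRF) and 6.52 (PBS). Under the FceRIa KO label Ptgs2 had a log2 ratio of 0.78 (1.72-fold). The log2 ratios of the 9 neutrophil genes in that pair ran from -0.39 (Cxcr2) to 0.63 (Clec4d), with a median of 0.09. The part of neutrophils in these values was not tested.

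**Figure D3:**
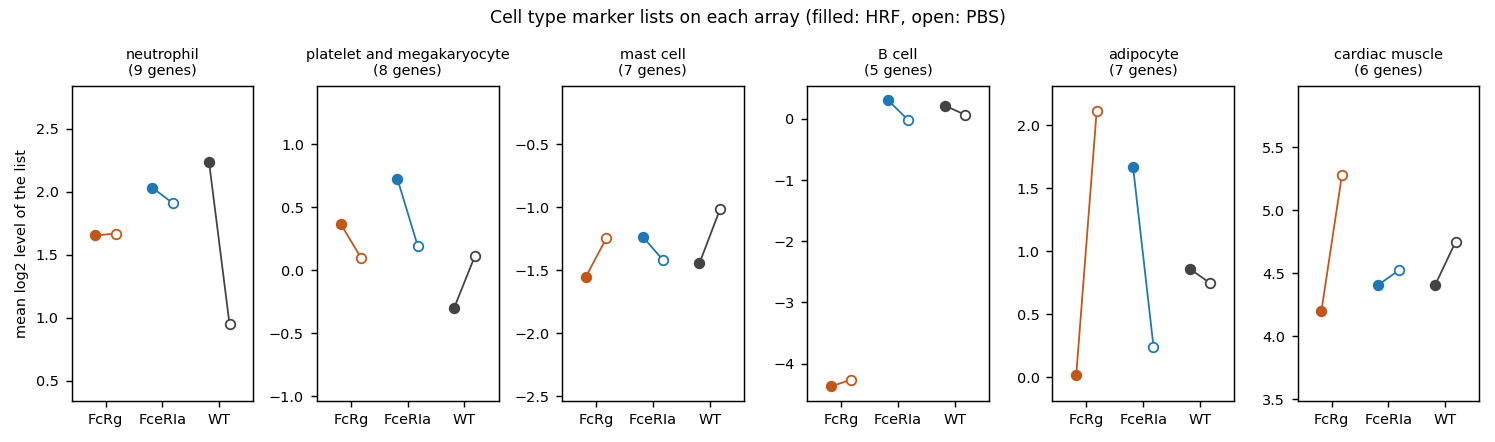
Mean log2 level (vertical axis; each panel has its own range, and the B cell panel spans more units) of 6 cell type marker lists on each array, by genotype label (FcRg and FceRIa are the knockout labels). Filled circles are HRF arrays and open circles PBS arrays. Neutrophil genes are lowest on the WT PBS array (0.95), B cell genes are at -4.37 and -4.26 on the HRF and PBS arrays labelled FcRg KO, and adipocyte genes are highest on the PBS array labelled FcRg KO (2.11).

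Whether the response differed between genotype labels was tested with a term for 1 label's response against that of the other pairs. The response in WT exceeded that of the other pairs by 1.40 for Ptgs2 (log2, SE 0.45, 95% interval -0.21 to 3.01, limma adjusted p = 0.572) and by 0.76 for Alox15 (SE 0.15, adjusted p = 0.569). For the dimmer Ptges probe the difference was 0.89 (SE 0.37, limma adjusted p = 0.596). These were the largest for the 12 probes, and 9 of the 10 genes had an estimate above 0, with a median of 0.33. The median over all genes was -0.03, so more of all genes lay below 0 than above it. The term called 0 of 17605 genes (0.0%), with 1527 (8.67%) at an unadjusted p under 0.05, of which Alox15 was 1 and the only 1 of the 10. For the response under the FceRIa KO label against the other pairs, Ptgds differed by 0.65 (SE 0.22), Cysltr1 by -0.57 (SE 0.21) and Alox5 by -0.54 (SE 0.21), each with a limma adjusted p that rounds to 1, and the term called 0 genes (0.0%, 608 unadjusted). For the FcRg KO label, Ptgs2 differed by -1.29 (SE 0.55, limma adjusted p = 0.926) and Ptgs1 by -0.52 (SE 0.21, adjusted p = 0.913), again with 0 genes called (0.0%, 1027 unadjusted). A difference in response between labels was thus not shown for any of the 10 genes, and with 1 residual degree of freedom the intervals are wide.

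The labelled knockouts were also set against WT over both challenges. Under the FcRg KO label 26 of 17605 genes passed (0.148%), and 0 of the 10 did. Ptgds was higher than WT by 0.67 (SE 0.22, limma adjusted p = 0.365) and Ltc4s by 0.37 (SE 0.11, limma adjusted p = 0.362), both of them higher on 2 of 2 arrays and the only 2 of the 10 with an unadjusted p under 0.05, beside 2363 of all genes (13.4%). On the PBS arrays alone each of the 10 genes was higher under the FcRg KO label than in WT, from 0.02 for Hpgds to 0.77 for Alox15, with a median of 0.35 beside -0.01 over all genes. Of all genes well above background on both arrays, 51.5% were higher. With normexp background correction 9 of the 10 were higher, and Ptgs1 stood at -0.05. The WT PBS array used here is also the base of the WT HRF ratios, so those ratios and this contrast are not independent. It had 79.6% of spots well above background, the most of the 6 arrays. On the HRF arrays 6 of the 10 were higher, beside 55.2% of all such genes, and Ptgs2 differed from WT by -1.28 log2 units. The B cell genes, low on the arrays labelled FcRg KO, move with this contrast, and their part was not tested.

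Under the FceRIa KO label 0 of 17605 genes passed against WT (0.0%), with 2264 (12.9%) at an unadjusted p under 0.05. Hpgds differed from WT by -0.53 on the log2 scale (SE 0.12, limma adjusted p = 0.291, lower on 2 of 2 arrays), Ptgs2 by -0.77 (SE 0.48, adjusted p = 0.556) and Alox15 by -0.44 (SE 0.25, adjusted p = 0.528). The Hpgds difference was -0.039 with normexp, where Hpgds was 0.07 above WT on the PBS arrays and -0.15 from it on the HRF arrays. On the HRF arrays 9 of the 10 genes were lower than in WT, with Ptgs2 at -1.27 and Alox15 at -0.86 log2 units, and Ptgds was higher by 0.67. Of all genes well above background on both arrays, 49.5% were higher there. On the PBS arrays 6 of the 10 were higher, beside 46.6% of all such genes, and 4 lower, with Hpgds at -0.35 and Alox5 at 0.30. With normexp 7 were higher and 3 lower there. Both contrasts use the same WT arrays, so they are not independent of each other.

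**Figure D4:**
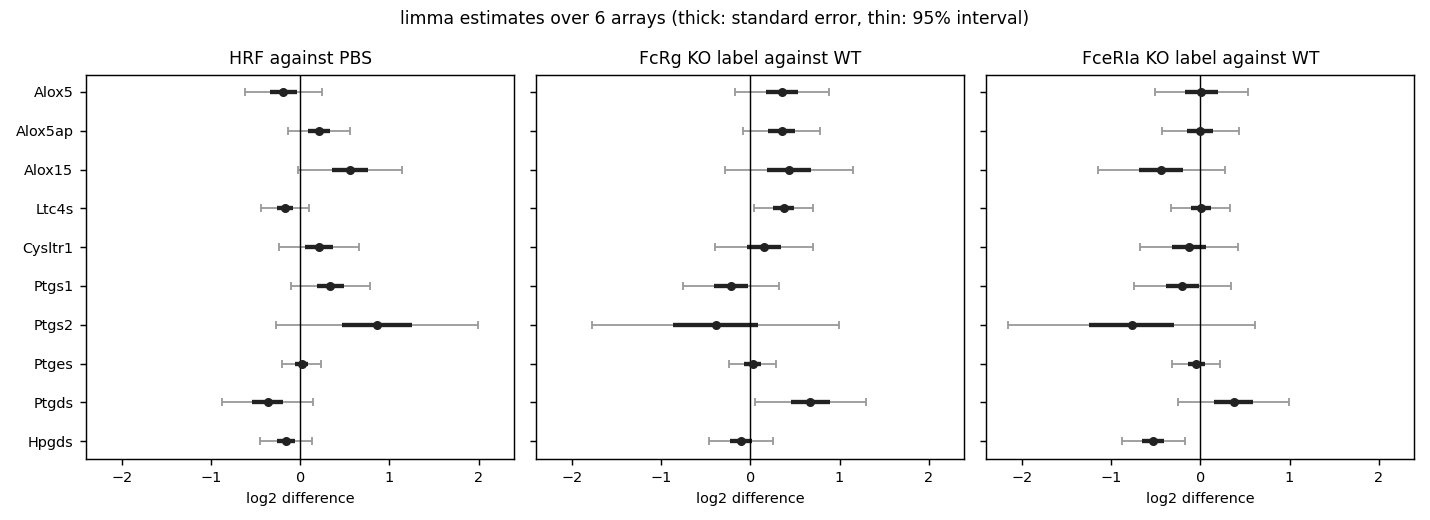
limma estimates on the log2 scale (horizontal axes) for the 10 genes (rows): HRF against PBS, FcRg KO label against WT and FceRIa KO label against WT, over 6 arrays. Dots are estimates, thick bars 1 standard error and thin bars 95% intervals. Ptgs2 has the widest interval (-0.27 to 1.99 in the first panel), and only Ltc4s and Ptgds in the middle panel and Hpgds in the right panel have intervals clear of 0, none with an adjusted p under 0.05.

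A further 60 genes of arachidonic acid release, lipoxygenase and prostanoid enzymes, receptors, transport and breakdown were listed by role. Of these, 59 were measured and 55 were well above background on at least 1 array, and Pla2g4e, Alox8, Oxgr1 and Gpr17 were not. In limma 0 of the 55 passed for the HRF effect in either direction. In WT 5 of 54 compared were at least 2-fold higher and 0 lower, beside 2.32% and 1.52% of all genes. Under the FceRIa KO label 2 of 53 were higher and 0 lower (1.48% and 0.447% of all genes), and under the FcRg KO label 1 of 55 and 0 (0.765% and 1.18%). The medians of the log2 ratios were -0.01 under the FcRg KO label, -0.03 under the FceRIa KO label and 0.01 in WT.

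Of the 16 phospholipase genes above background, Pla2g4c, a cytosolic phospholipase A2, was 16.6-fold higher with HRF in WT, at -2.16 (HRF) and -6.21 (PBS). That PBS level was close to -6.57, the lowest well above background on its array, so the size of this ratio rests on a dim signal. On the PBS arrays of both knockout labels Pla2g4c was not well above background, and HRF was at least 1.77-fold higher (FcRg KO label) and at least 1.69-fold higher (FceRIa KO label). The fitted HRF effect was 2.53 (SE 0.70, limma adjusted p = 0.557), and since that fit uses the dim values it is no bound. Pla2g7, which breaks down platelet-activating factor, was 2.11-fold higher in WT, at 1.84 (HRF) and 0.76 (PBS), with log2 ratios of -0.01 and 0.06 under the FcRg KO and FceRIa KO labels. Pla2g10, a secreted phospholipase, was 2.13-fold higher under the FcRg KO label, at -3.27 (HRF) and -4.36 (PBS), with log2 ratios of -0.24 under the FceRIa KO label and 0.40 in WT.

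Among 12 further lipoxygenase and leukotriene enzyme genes above background, Alox12e, an epidermal lipoxygenase in mice, was the 1 past 2-fold. It was 3.18-fold higher under the FceRIa KO label, at -1.78 (HRF) and -3.45 (PBS), and 3.58-fold higher in WT, at -1.09 (HRF) and -2.93 (PBS), with a log2 ratio of 0.27 under the FcRg KO label. Its fitted HRF effect was 1.26 (SE 0.38, limma adjusted p = 0.557). Of 4 leukotriene and lipoxin receptor genes above background, Ltb4r1, the leukotriene B4 receptor of neutrophils and other leukocytes, was 2.26-fold higher in WT, at 1.22 (HRF) and 0.05 (PBS), with log2 ratios of 0.20 and -0.12 under the FcRg KO and FceRIa KO labels. Neutrophil genes were likewise higher on the WT HRF array, and their part in the Ltb4r1 value was not tested.

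On the prostanoid side, 0 of 8 further enzyme genes and 0 of 6 transport and breakdown genes reached 2-fold in any pair. Of the prostanoid receptors, Ptger4, the EP4 receptor for prostaglandin E2, was 3.78-fold higher with HRF in WT, at -1.02 (HRF) and -2.94 (PBS), 1.55-fold higher under the FceRIa KO label and at a log2 ratio of 0.10 under the FcRg KO label. The limma HRF effect of Ptger4 was 0.88 (SE 0.41, adjusted p = 0.560). Ptger3, the EP3 receptor, was 2.22-fold higher under the FceRIa KO label, at -1.56 (HRF) and -2.71 (PBS), with log2 ratios of -0.63 under the FcRg KO label and 0.32 in WT.

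**Figure D5:**
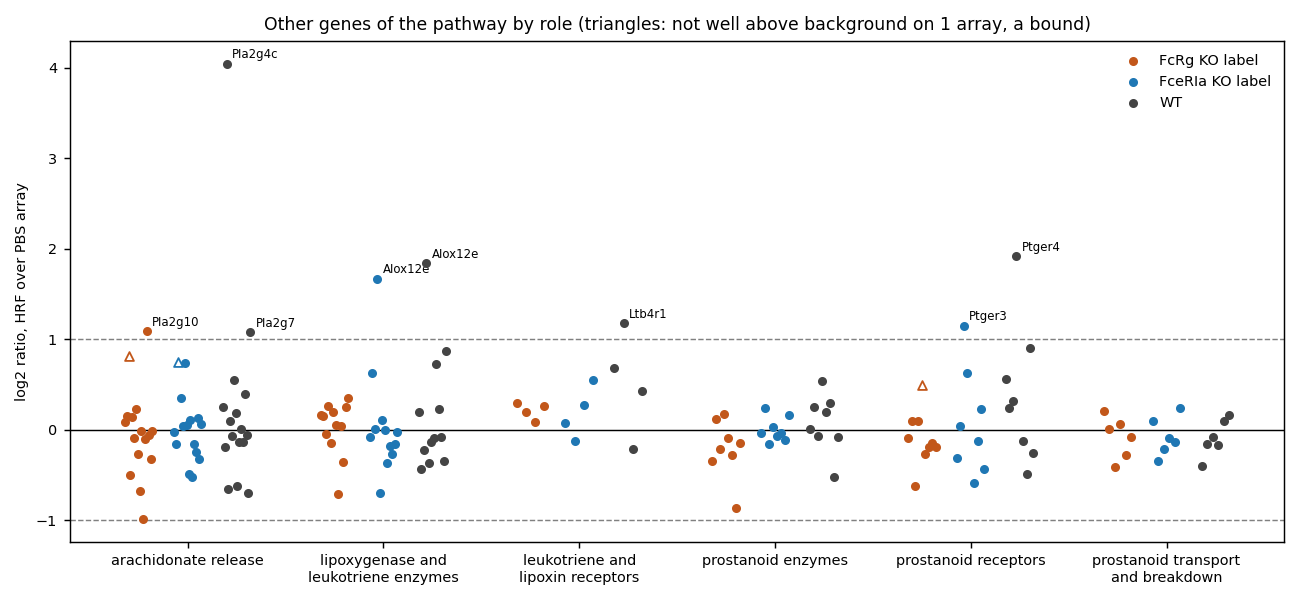
Log2 ratio, HRF over PBS array (vertical axis), for the other pathway genes, grouped by role (horizontal axis), with 1 point per gene and genotype label. Dashed lines mark 2-fold, triangles are bounds from genes not well above background on 1 array, and measured genes past 2-fold are named. Most points lie between the lines, and Pla2g4c in WT (4.05) stands far above the others.

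The 3 genes whose levels spanned at least 1 log2 unit over the arrays, Ptgs2, Alox15 and Ptgds, were compared with 15678 genes well above background on all 6 arrays. Likeness was the root mean square difference over the 6 arrays after each gene was centred on its own mean. Nearest to Ptgs2 were Tgm1, a transglutaminase (0.05), Slc13a2, a dicarboxylate transporter (0.08), and Nfil3, a transcription factor (0.10). Tgm1 had log2 HRF to PBS ratios of 0.03 under the FcRg KO label, 0.83 under the FceRIa KO label and 1.71 in WT, close to those of Ptgs2. Nearest to Alox15 were Gapt (0.15), Reg3g, an antimicrobial lectin (0.15), and Sdf2l1 (0.17), and nearest to Ptgds were M1ap (0.09), Klhl30 (0.10) and Ntrk3, a neurotrophin receptor (0.10). These are descriptions of 6 arrays, each of which shares its scaling over all genes.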

How the data were processed

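Total RNA of whole lungs, extracted with an RNeasy kit and labelled with Cy3, was read on 6 Agilent 1-colour arrays, per the labels. The deposited scanner files hold spot intensities from Feature Extraction 10.7.3.1 on a design annotated on mm9, per the file headers, and the processed signal is an intensity already background-subtracted and detrended within each array there. The authors also deposited a table of log2 values. Across probes, differences between its columns of 1 label followed the same differences in the scanner files (Pearson r 0.991 to 0.995, slopes near 1), so its direction and log base are known. The median of its WT PBS column was 0.1 and that of each other column 0, and its centring stays unknown.

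The processed signal was divided by its 75th percentile on the array and taken to log2, leaving out control spots and outlier flags and averaging spots of a probe. RefSeq accessions were present for 32335 of 55681 probes, and the RefSeq gene table of GRCm38.p6 named 26056 of them (19752 genes), which leaves 29625 probes unnamed here. Where a gene had more than 1 probe (5269 genes), the brightest on average stands for it. That table served for names alone, its build being another than the design's. Genes well above background on at least 1 array were tested with lmFit and eBayes of limma 3.58.1 under R 4.3.3 (Benjamini-Hochberg 0.05 over 17605 genes), with genotype label and challenge as additive terms and 2 residual degrees of freedom. A response of 1 label against the others was 1 further term, leaving 1 degree of freedom. The limma script was tested on simulated data. Ratios within a label have no test, and 2-fold is the call. A gene not well above background on 1 array is given as "at least N-fold", its signal there being raised to the lowest that was well above background, and the number of arrays limits precision.

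The text names all 10 genes with each probe, the genes that check the labels, other pathway genes that passed limma or reached 2-fold in a label, and for genes spanning 1 log2 unit the 3 of most similar pattern. A marker gene of the B cell list is not reported here and was left out of its mean. The 10 genes, the other lists and the tests were chosen with earlier results of these data known. Alternatives were normexp on the deposited median spot and background intensities (offset 50, quantile normalization), the value table, median scaling, filters on dim probes, the mean over probes, an intensity trend, no genotype term, leaving out a label, a 1.5-fold call and, added after the data were seen, each probe on its own. The remaining steps ran in Python 3.11.15 (matplotlib 3.10.9, numpy 2.4.6, pandas 2.3.3 and scipy 1.17.1).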

Additional observations from a re-analysis of the deposited data

How the results depend on the processing

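Under the alternatives none of the 10 genes passed limma for any of the 6 tested effects, with a lowest adjusted p of 0.229, and the HRF effect ranged from 0.39 to 1.29 for Ptgs2 and from 0.31 to 0.73 for Alox15, with both low ends from the fit without the WT pair. Leaving out the pair of 1 label at a time left 0 genes called for the HRF effect. The full fit also called 0 and these fits hold fewer arrays, so this count is no check of the result. Of 486 estimates under the alternatives 468 kept their sign, though many of them could not turn. For these genes the filters on dim probes, the intensity trend and leaving out the genotype term returned the same estimate. So did the mean over probes and the fit of each probe for genes with 1 probe. The share that kept its sign is thus no measure of agreement. The cause of the turns that follow was not tested. Ptges turned to -0.030 with normexp for the HRF effect, and lay between -0.032 and 0.061 when 1 label's pair was left out. For the FcRg KO label against WT it turned to -0.015 with normexp, -0.11 with the mean over probes and -0.25 for the dimmer probe alone, and Hpgds to 0.050 with normexp and 0.035 with median scaling. For the FceRIa KO label against WT, Alox5ap turned to 0.020 with normexp, 0.05 in the value table and 0.14 with median scaling, Ltc4s to -0.040 with normexp, and Cysltr1 to 0.020 and Ptges to 0.10 with median scaling. In the response of WT against the others, Ltc4s turned to -0.10 and Ptgds to 0.026 with normexp. In that of the FcRg KO label Alox5ap turned to 0.0060 with normexp, and in that of the FceRIa KO label Ptges turned to 0.10 in the value table and 0.012 with the mean over probes.

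Counts over all genes depended on the setting. The 26 genes called for the FcRg KO label against WT became 43 with normexp, 11 in the value table, 16 without a filter, 47 with an intensity trend and 0 without the arrays labelled FceRIa KO, a fit of fewer arrays. The 0 genes for the FceRIa KO label became 2, 25 and 1 with normexp, median scaling and a trend, and the 0 for its response against the others became 126 with median scaling. For genes 2-fold higher with HRF, the 127 under the FcRg KO label became 27 with normexp and 226 in the value table, the 242 under the FceRIa KO label became 118 with normexp, and the 404 in WT became 646 with median scaling. For genes 2-fold lower, the 195 under the FcRg KO label became 79 with normexp, 299 in the value table and 294 with median scaling, and the 73 under the FceRIa KO label became 17, 156 and 139 in these settings and 34 when all arrays had to be well above background. The 265 in WT became 35 with normexp and 544 in the value table. At 1.5-fold the counts were 508 higher and 575 lower under the FcRg KO label, 602 and 330 under the FceRIa KO label, and 918 and 1343 in WT. Of the 10 genes, with Ptges counted by its brighter probe, 1 was then lower under the FcRg KO label (Ptgds), 1 was higher under the FceRIa KO label (Ptgs2), and 3 were higher in WT (Ptgs2, Alox15 and Ptgs1). Scaling on the median moved the median of all genes by 0.27 and 0.23 in the PBS contrasts of the FcRg KO and FceRIa KO labels with WT. The labels number no replicates. The genotype term of the fit pairs the HRF and PBS array of a label, and without that term 0 genes were called for the HRF effect as well.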
